A study of Homo sapiens with 6 samples.

Results

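SR proteins and the TRA2 proteins were followed at the level of their mRNAs in HEK293 cells, an established human embryonic kidney line, after delivery of an shRNA against the splicing factor PRPF39. The members were taken as a fixed list of 10 Ensembl transcript IDs, among the 203028 transcripts of each deposited table. They stand for 9 genes, which are the 7 SR genes SRSF1, SRSF2, SRSF3, SRSF4, SRSF6, SRSF7 and SRSF9 and the 2 genes TRA2A and TRA2B. SRSF2 is represented by 2 transcripts, and each other gene by 1. All 10 had reads in each of the 6 libraries.

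The control group consisted of 3 libraries from cells that had received a scrambled shRNA, and the other group of 3 libraries from cells with the shRNA against PRPF39. In both groups a lentivirus carried the construct, and cells that had integrated it were kept with puromycin. Polyadenylated RNA was sequenced. Neither the clonality of the cells nor the sequence of the shRNA is given in the labels, and they do not say whether replicates were separate cultures, so the p-values below reflect library-to-library spread only, and that spread may be technical. In bulk RNA, fewer cells with a transcript and less of it per cell cannot be told apart. The level of PRPF39 was not analysed here, because nothing used here pairs its transcript IDs with the gene, and the knockdown behind the labels was therefore not checked. For the same reason HEK293 identity was not checked against marker genes.

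SR proteins bind exonic sequences through RNA recognition motifs and use a domain rich in arginine and serine to help recruit spliceosome components, among them the U1 snRNP at 5′ splice sites, the particle with which PRPF39 associates. TRA2A and TRA2B are related activators that favour purine-rich exonic enhancers. Many genes of this family limit their own output: their proteins promote inclusion of a poison exon or other splicing events that put the transcript in the path of nonsense-mediated decay, so the coding transcript is the form that yields protein. The coding status of the 10 IDs comes from how the list was drawn up and was not checked in the files, and other transcripts of these genes, those with poison exons included, were not matched to IDs and were not analysed here.

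In GRCh38.p14, the RefSeq annotation places SRSF1 on chromosome 17 from 57989038 to 58007246, and SRSF2 on the same chromosome from 76734115 to 76737411. SRSF3 lies on chromosome 6 (36594362 to 36605600), SRSF4 on chromosome 1 (29147743 to 29181900), SRSF6 on chromosome 20 (43457896 to 43464243) and SRSF7 on chromosome 2 (38743599 to 38751494). SRSF9 lies on chromosome 12 (120461672 to 120469748), TRA2A on chromosome 7 (23504780 to 23531981) and TRA2B on chromosome 3 (185914558 to 185938014). All 9 are annotated as protein-coding. The measured features are whole mature transcripts, exons and UTRs together, 1201 bases long for SRSF9 at the short end and 4325 bases for SRSF6 at the long end.

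The 6 libraries held 113747941 to 246491084 estimated counts. Each member had between 4668 and 49317 reads in a library, so counting error alone would give a coefficient of variation of 0.45% to 1.46%, a figure that leaves out the uncertainty of sharing reads between related transcripts. Control replicate 3 stood somewhat apart from the rest: over transcripts of at least 5 CPM (read counts scaled to library size, not to length), its log2 CPM correlated on average at 0.939 with the other controls and at 0.891 with the PRPF39 shRNA libraries, both the lowest such values of any library. That library also had the lowest TPM of the 6 for 5 of the 10 members. TPM, a measure of abundance scaled by transcript length and by library, serves here to compare levels between genes.

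Group by group, values were higher with PRPF39 shRNA for SRSF1, SRSF3 and SRSF7 and lower for the second SRSF2 transcript (ENST00000392485). The groups overlapped for the first SRSF2 transcript (ENST00000359995), SRSF4, SRSF6, SRSF9 and TRA2A, while TRA2B was apart in TPM but not in CPM. None of the 10 passed the test over all 97571 transcripts tested (edgeR, quasi-likelihood, with p adjusted by Benjamini-Hochberg and a threshold of 0.05), a test that called 0.904% of all transcripts. At an unadjusted p under 0.05 there were 4: both SRSF2 transcripts, SRSF3 and SRSF7, where 16.1% of all transcripts tested reached that level. The members are abundant, each above at least 96% of tested transcripts in mean CPM. When only the 20216 transcripts that averaged 5 CPM or more were tested, 1 member was higher (SRSF7) and 1 was lower (the second SRSF2 transcript), where 8.56% of those transcripts were called higher and 9.13% lower. In that test 4 of the 10 members had an unadjusted p under 0.05, close to the 36.0% of all transcripts of this abundance (edgeR). DESeq2, on the transcripts of the wider test, called 2 members higher (SRSF3 and SRSF7) and 1 lower (the second SRSF2 transcript), beside 7.51% higher and 6.32% lower of the 65235 transcripts to which it gave an adjusted p. limma-voom called 0 of the 10, beside 0.898% of all transcripts, and had 5 members at an unadjusted p under 0.05, beside 18.0% of all. That last share is over transcripts most of which are less abundant than the members, and limma-voom was not run at 5 CPM.

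In CPM, all 3 PRPF39 shRNA libraries lay above all 3 controls for 3 members and below them for 1 member. Among all transcripts of at least 5 CPM, the shares were 24.0% above and 17.0% below. The number above among the 10 is thus close to the share seen across abundant transcripts. The median log2 fold change of the members was 0.16, against -0.0245 over all transcripts tested, and their median absolute log2 fold change of 0.273 was below the 0.401 of all transcripts, most of which are less abundant. In the test of at least 5 CPM the medians were 0.111 for the members and -0.000266 for all, and the median absolute values 0.226 and 0.245.

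**Figure D1:**
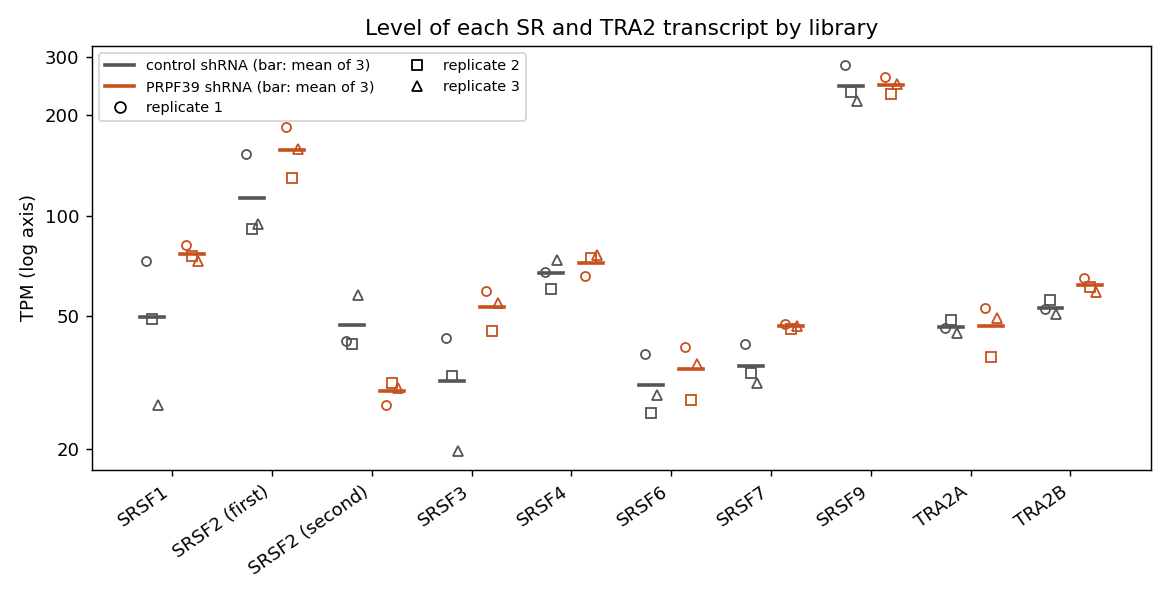
TPM of each of the 10 transcripts (log axis) in the 3 control shRNA libraries (grey) and the 3 PRPF39 shRNA libraries (orange), with a symbol per replicate number and a bar at the group mean. For SRSF1 and SRSF3 the control values spread widely, with replicate 3 lowest at 27.0 and 19.8 TPM, while the second SRSF2 transcript is lower in every PRPF39 shRNA library than in any control.

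The order of levels within each group was led by SRSF9, at 245.7 ± 32.8 TPM among the controls and 246.8 ± 14.7 TPM with PRPF39 shRNA (SD, n = 3 per group). The first SRSF2 transcript came next in both groups, and its range touched neither that of SRSF9 nor that of the transcript below it. In control libraries SRSF4 (67.3 TPM) followed, then TRA2B (53.0), SRSF1 (49.7), the second SRSF2 transcript (47.0) and TRA2A (46.4), of which TRA2B, SRSF1, the second SRSF2 transcript and TRA2A each overlapped their neighbour. SRSF7 (35.4), SRSF3 (32.0) and SRSF6 (31.0) closed the order with overlapping ranges. In PRPF39 shRNA libraries SRSF1 ranked just under the first SRSF2 transcript at 76.9 TPM with a range that overlapped that of SRSF4 (72.3), and SRSF3 (53.2) overlapped both TRA2B (61.8) and TRA2A (46.7), its neighbours in that order. The second SRSF2 transcript was last at 29.7 TPM, with a range that overlapped that of SRSF6 (34.8) above it. SRSF1 moved from the fifth to the third place and SRSF3 from the ninth to the sixth, whereas the second SRSF2 transcript went from the sixth to the last.

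The sum of the 10 transcripts was 840 TPM, 673 TPM and 648 TPM in control replicates 1, 2 and 3, and 886 TPM, 761 TPM and 833 TPM in PRPF39 shRNA replicates 1, 2 and 3. In TPM the groups overlapped through control replicate 1. In CPM they did not, with sums of 1009, 1013 and 898 in control replicates 1, 2 and 3. The sums were 1179, 1058 and 1082 CPM in PRPF39 shRNA replicates 1, 2 and 3. Among single transcripts of at least 5 CPM, 24.0% lay above all controls in the same way. The means were 721 ± 104 TPM and 827 ± 62.5 TPM (SD, n = 3 per group), or 0.0721% and 0.0827% of each library's TPM. Within that sum, SRSF9 held 34.1% ± 0.58 among the controls and 29.9% ± 0.49 with PRPF39 shRNA (SD, n = 3 per group), without overlap. Since SRSF9's own TPM overlapped between groups, its smaller share goes with the larger values of other members, as shares of a sum must.

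The sequences just upstream of 3 genes are shown because their transcripts were the ones with higher, non-overlapping values in both TPM and CPM. Among transcripts of at least 5 CPM, 24.0% were likewise above all controls in CPM, so this does not set the 3 apart. For SRSF1 the margin in TPM was 73.03 against 72.99. Each sequence is 200 bases, ending at the base before the annotated start of the gene. The source is the RefSeq promoter table of GRCh38.p14, read 5′ to 3′ on the gene's strand. The SRSF1 stretch is chr17:58007247-58007446 (minus strand), that of SRSF3 is chr6:36594162-36594361 (plus strand) and that of SRSF7 is chr2:38751495-38751694 (minus strand). Capitals mark matches on either strand to the TATA box letters TATAAA, to the CCAAT box or to TGACG, the core of a cyclic AMP response element.
SRSF1: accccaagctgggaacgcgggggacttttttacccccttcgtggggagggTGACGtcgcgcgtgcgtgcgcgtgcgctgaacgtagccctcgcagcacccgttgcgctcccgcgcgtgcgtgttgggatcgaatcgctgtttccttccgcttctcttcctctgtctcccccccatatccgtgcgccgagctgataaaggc
SRSF3: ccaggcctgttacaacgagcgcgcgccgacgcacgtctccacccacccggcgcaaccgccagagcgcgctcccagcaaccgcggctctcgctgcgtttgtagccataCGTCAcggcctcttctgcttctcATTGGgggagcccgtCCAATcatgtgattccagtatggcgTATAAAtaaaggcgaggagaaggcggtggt
SRSF7: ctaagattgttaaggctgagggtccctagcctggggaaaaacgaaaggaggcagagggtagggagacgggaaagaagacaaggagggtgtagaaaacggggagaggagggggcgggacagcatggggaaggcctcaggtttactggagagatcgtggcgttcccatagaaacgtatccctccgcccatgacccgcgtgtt

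The promoter table matched 7 of the 9 genes, all but SRSF2 and TRA2A, with 8 windows because SRSF7 has a pair of starts. In windows of 300 bases (250 before and 50 after the start), TGACG or its reverse complement was found in 4 of the 8, those of SRSF1, SRSF3, TRA2B and the downstream start of SRSF7, and in 24.6% of the 35116 windows in the table. TATAAA was found in 2 of the 8, SRSF3 and the downstream start of SRSF7, and in 11.5% of all windows. CCAAT was found in SRSF3 alone of the 8, and in 34.6% of all windows. The searched motifs do not overlap one another in the stretches shown. These matches describe the letters of the windows, and nothing in the libraries measures binding there.

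SRSF1, the splicing activator also known as SF2/ASF (ENST00000258962, 1513 bases), stood at 72.99 TPM, 49.2 TPM and 27.0 TPM in control replicates 1, 2 and 3. In PRPF39 shRNA replicates 1, 2 and 3 it stood at 82.0 TPM, 75.8 TPM and 73.03 TPM. The PRPF39 shRNA libraries were close to one another, and control replicate 1 lay just beneath the lowest of them. The log2 fold change was 0.62 ± 0.30 (SE; edgeR, adjusted p = 0.374). Without control replicate 3 it was 0.33 ± 0.12 (SE; adjusted p = 0.354, edgeR), in a fit that called 0.0107% of all transcripts. The coefficient of variation in TPM was 46.3% among the controls and 5.95% with PRPF39 shRNA.

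SRSF3, a small SR protein that also acts in mRNA export (ENST00000373715, 4222 bases), gave 43.1 TPM, 33.2 TPM and 19.8 TPM in control replicates 1, 2 and 3. The PRPF39 shRNA replicates 1, 2 and 3 gave 59.5 TPM, 45.1 TPM and 54.9 TPM. The groups did not overlap, and control replicate 3 was again the lowest by a wide margin. The log2 fold change was 0.69 ± 0.25 (SE; edgeR, adjusted p = 0.251). The test at 5 CPM gave 0.65 ± 0.22 (SE; adjusted p = 0.0746) and DESeq2 an adjusted p of 0.0388. Without control replicate 3 the value was 0.45 ± 0.12 (SE; edgeR, adjusted p = 0.248), in a fit that called 0.0107% of all transcripts.

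SRSF7, a relative of SRSF3 that carries a zinc knuckle and likewise serves as an export adaptor (ENST00000313117, 2489 bases), had the closest values among the PRPF39 shRNA libraries, with a coefficient of variation of 1.99% in TPM. Control replicates 1, 2 and 3 held 41.2 TPM, 33.6 TPM and 31.4 TPM, and PRPF39 shRNA replicates 1, 2 and 3 held 47.5 TPM, 45.6 TPM and 46.7 TPM. The treated libraries all lay above the highest control. SRSF7 had a log2 fold change of 0.37 ± 0.09 (SE; edgeR, adjusted p = 0.135). Among transcripts of at least 5 CPM it rose by 0.32 ± 0.08 on the log2 scale (SE; edgeR, adjusted p = 0.0318), and by DESeq2 it rose by 0.38 (adjusted p = 0.00315). With 1 library left out in turn, the 5 CPM test gave 0.26 to 0.36, with adjusted p from 0.0301 to 0.104 (edgeR), and SRSF7 was called in 1 of the 6, the one without control replicate 1.

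**Figure D2:**
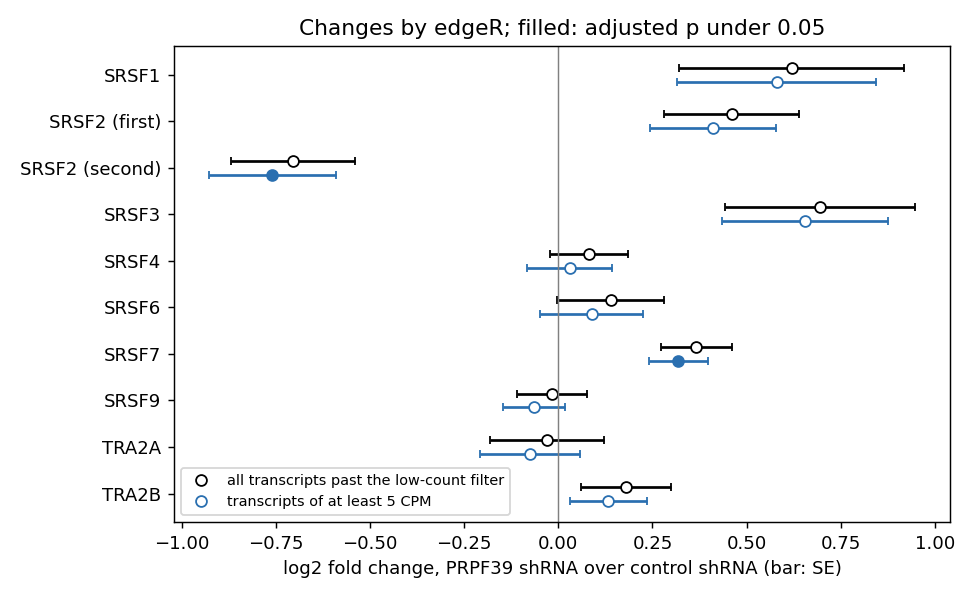
Log2 fold change of each transcript, PRPF39 shRNA over control shRNA, with its standard error, from edgeR over all 97571 transcripts past the low-count filter (black) and over the 20216 transcripts of at least 5 CPM (blue). Filled points have an adjusted p under 0.05: SRSF7 and the second SRSF2 transcript, in the 5 CPM test.

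SRSF2, also called SC35, is the member with 2 transcripts, and they differed in direction. The first (ENST00000359995, 1927 bases) stood at 153 TPM, 91.5 TPM and 94.5 TPM in control replicates 1, 2 and 3 and at 185 TPM, 130 TPM and 159 TPM in PRPF39 shRNA replicates 1, 2 and 3. Control replicate 1 was higher than PRPF39 shRNA replicate 2, so the groups overlapped. The log2 fold change of this transcript was 0.46 ± 0.18 (SE; edgeR, adjusted p = 0.277), and 0.41 ± 0.17 (SE; adjusted p = 0.122) in the test at 5 CPM. With libraries blocked by replicate number at 5 CPM it was 0.42 ± 0.10 (SE; edgeR, adjusted p = 0.0333). It was also called higher at 5 CPM without control replicate 1 (edgeR, adjusted p = 0.0271), and in no other alternative.

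The second SRSF2 transcript (ENST00000392485, 2885 bases) held 42.0 TPM, 41.1 TPM and 57.8 TPM in control replicates 1, 2 and 3. It held 27.1 TPM, 31.5 TPM and 30.5 TPM in PRPF39 shRNA replicates 1, 2 and 3. All treated libraries lay beneath all controls, and control replicate 3 was the highest. Its log2 fold change was -0.70 ± 0.16 (SE; edgeR, adjusted p = 0.113). It fell by 0.76 ± 0.17 on the log2 scale in the test at 5 CPM (SE; edgeR, adjusted p = 0.023) and by 0.69 by DESeq2 (adjusted p = 0.00208). Left out in turn, the libraries gave -0.90 to -0.55 at 5 CPM, with adjusted p from 0.0124 to 0.078 (edgeR), and the transcript was called in 2 of 6, without control replicate 1 and without control replicate 3.

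Of the reads assigned to either SRSF2 transcript, the second took 26.8%, 37.6% and 45.1% in control replicates 1, 2 and 3. The share was 16.5%, 24.5% and 20.5% in PRPF39 shRNA replicates 1, 2 and 3. The highest treated library lay 2.31 percentage points beneath the lowest control. The means were 36.5% ± 9.17 among the controls and 20.5% ± 4.04 with PRPF39 shRNA (SD, n = 3 per group), a difference of -16.0 percentage points (exact two-sided permutation test, p = 0.1, the smallest that 3 against 3 can give). The same share without control replicate 3 differed by -11.7 points. Added together, the 2 transcripts came to 160.1 ± 32.1 TPM among the controls and 187.6 ± 25.1 TPM with PRPF39 shRNA (SD, n = 3 per group), with overlap. Both transcripts belong to 1 gene that spans only 3297 bases, so the quantifier had to divide shared reads between them by its model, and the files carry no measure of that uncertainty.

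**Figure D3:**
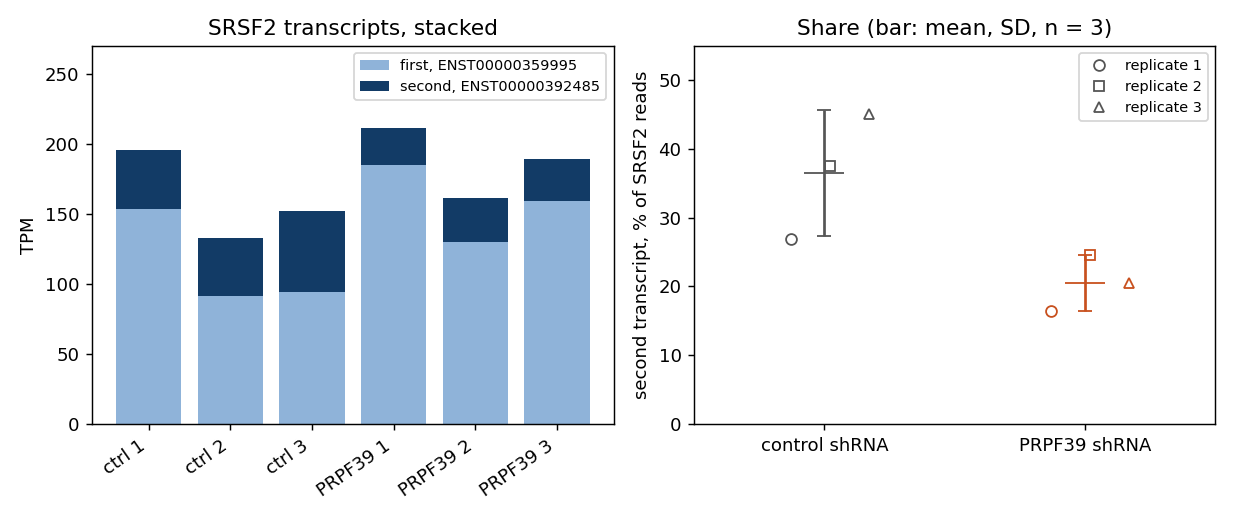
Left, TPM of the 2 SRSF2 transcripts, stacked, in each library. Right, the second transcript as a percent of the reads of both, by library, with the mean and SD of 3 libraries per group. The share ran from 26.8% to 45.1% among the controls and from 16.5% to 24.5% with PRPF39 shRNA.

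SRSF4 and SRSF6 are SR proteins with a pair of RNA recognition motifs and long arginine- and serine-rich tails. SRSF4 (ENST00000373795, 2387 bases) stood at 67.7 TPM, 60.3 TPM and 73.8 TPM in control replicates 1, 2 and 3 and at 65.9 TPM, 74.8 TPM and 76.2 TPM in PRPF39 shRNA replicates 1, 2 and 3. The groups overlapped, and the log2 fold change was 0.08 ± 0.10 (SE; edgeR, adjusted p = 0.766). SRSF4 is the only member whose effective length exceeded its length, by a factor of 1.18 to 1.2 depending on the library, where the other members had 0.59 to 0.866. An effective length above the length lowers the TPM relative to the read number. In CPM, which is not scaled by length, SRSF4 averaged 161 among the controls, above the 143 of the first SRSF2 transcript. SRSF4 is also the longer transcript (2387 against 1927 bases), so the order in CPM does not separate length from effective length.

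SRSF6 (ENST00000244020, 4325 bases) held 38.4 TPM, 25.6 TPM and 28.9 TPM in control replicates 1, 2 and 3. It held 40.3 TPM, 28.1 TPM and 35.9 TPM in PRPF39 shRNA replicates 1, 2 and 3. The spread inside each group was larger than the distance between their means, with a log2 fold change of 0.14 ± 0.14 (SE; edgeR, adjusted p = 0.701).

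SRSF9, a shorter SR protein with a brief arginine- and serine-rich tail (ENST00000229390, 1201 bases), was the most abundant member. It stood at 283 TPM, 234 TPM and 220 TPM in control replicates 1, 2 and 3, and at 261 TPM, 232 TPM and 248 TPM in PRPF39 shRNA replicates 1, 2 and 3. The treated libraries lay inside the range of the controls. The log2 fold change was -0.02 ± 0.09 (SE; edgeR, adjusted p = 0.953), and its sign depended on the scaling, with 0.03 under upper-quartile normalization.

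TRA2A (ENST00000297071, 1845 bases) gave 46.1 TPM, 48.7 TPM and 44.4 TPM in control replicates 1, 2 and 3, and 53.0 TPM, 37.7 TPM and 49.5 TPM in PRPF39 shRNA replicates 1, 2 and 3. The treated libraries lay on both sides of the controls, with replicate 2 the lowest of all 6. The log2 fold change was -0.03 ± 0.15 (SE; edgeR, adjusted p = 0.952), and 0.02 under upper-quartile normalization. TRA2A was the only member that varied more among PRPF39 shRNA libraries than among controls in TPM, with coefficients of variation of 17.1% and 4.74%. In CPM the same coefficients were nearly equal, 15.2% and 14.6%.

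TRA2B (ENST00000453386, 2952 bases) stood at 52.6 TPM, 55.9 TPM and 50.7 TPM in control replicates 1, 2 and 3. In PRPF39 shRNA replicates 1, 2 and 3 it stood at 65.1 TPM, 61.1 TPM and 59.2 TPM. In TPM the treated libraries all lay above the controls, but in CPM the groups overlapped, because control replicate 2 reached 111 CPM and PRPF39 shRNA replicate 3 only 99.7 CPM. TRA2B had a log2 fold change of 0.18 ± 0.12 (SE; edgeR, adjusted p = 0.529).

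The ratio of the 2 paralogs within a library does not depend on library scaling. TRA2A stood at 0.876, 0.872 and 0.876 times the TPM of TRA2B in control replicates 1, 2 and 3, and at 0.814, 0.618 and 0.835 times in PRPF39 shRNA replicates 1, 2 and 3. The controls were nearly identical in this ratio, and all treated libraries were beneath them. Counting error for TRA2A alone was 1.06% to 1.16% in the controls, more than the spread of their ratios. So close an agreement among 3 libraries is no measure of how far the ratio usually varies. On the log2 scale the means were -0.193 ± 0.0039 among the controls and -0.417 ± 0.241 with PRPF39 shRNA (SD, n = 3 per group), a difference of -0.224 (exact two-sided permutation test, p = 0.1, the smallest possible). Without PRPF39 shRNA replicate 2, the library with the lowest ratio, it was -0.0851. The SRSF2 share and this ratio were the only 2 quantities tested this way, and both have a Benjamini-Hochberg adjusted p of 0.1 (exact permutation). With 3 against 3, that value says only that the groups did not overlap. In CPM, 24.0% of single transcripts of at least 5 CPM separated upward and 17.0% downward. How often such shares or ratios separate was not counted. The second SRSF2 transcript separated by itself, so the share is not further support.

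**Figure D4:**
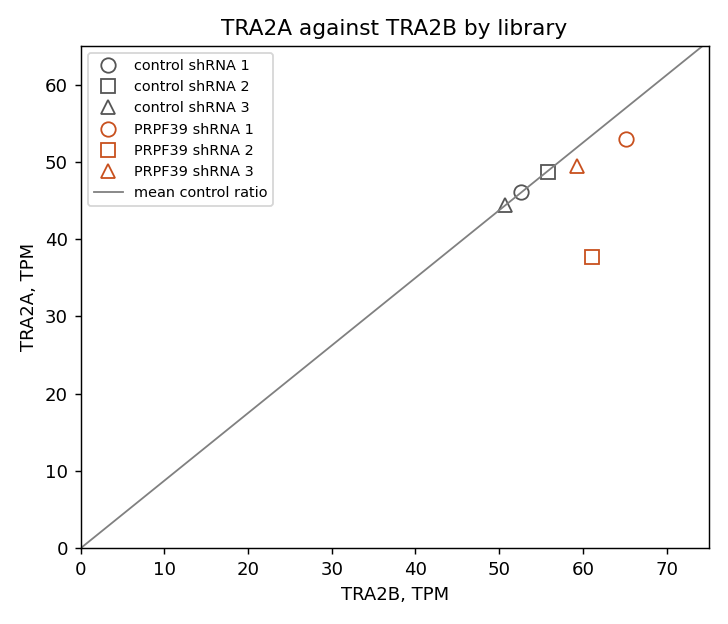
TPM of TRA2A against TPM of TRA2B in each library, with a line at the mean ratio of the controls. The 3 controls lie on the line at ratios of 0.872 to 0.876, and the 3 PRPF39 shRNA libraries lie beneath it, replicate 2 farthest at 0.618.

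Leaving out each library in turn from the wider test left the sign of 8 members as it was and changed that of SRSF9 and TRA2A, whose values lie near 0. SRSF1 ran from 0.33 to 0.89, SRSF3 from 0.45 to 0.87, the first SRSF2 transcript from 0.33 to 0.65 and the second from -0.84 to -0.52. SRSF7 moved least among the members with non-overlapping groups, from 0.29 to 0.41. These 6 fits called only 0 to 22 transcripts in all, at most 0.0214% of those tested, and that no member passed the threshold in them says nothing particular about the members. The lowest adjusted p of a member was 0.0876 for the second SRSF2 transcript without control replicate 1 (edgeR). The controls were more variable than the treated libraries for 9 of the 10 members in TPM and for 8 of 10 in CPM. No such count was made over all transcripts, so whether this is particular to the members was not tested. Over transcripts of at least 5 CPM, each control correlated with the other controls at 0.939 to 0.951 on average. For the PRPF39 shRNA libraries the same averages were 0.95 to 0.959.

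**Figure D5:**
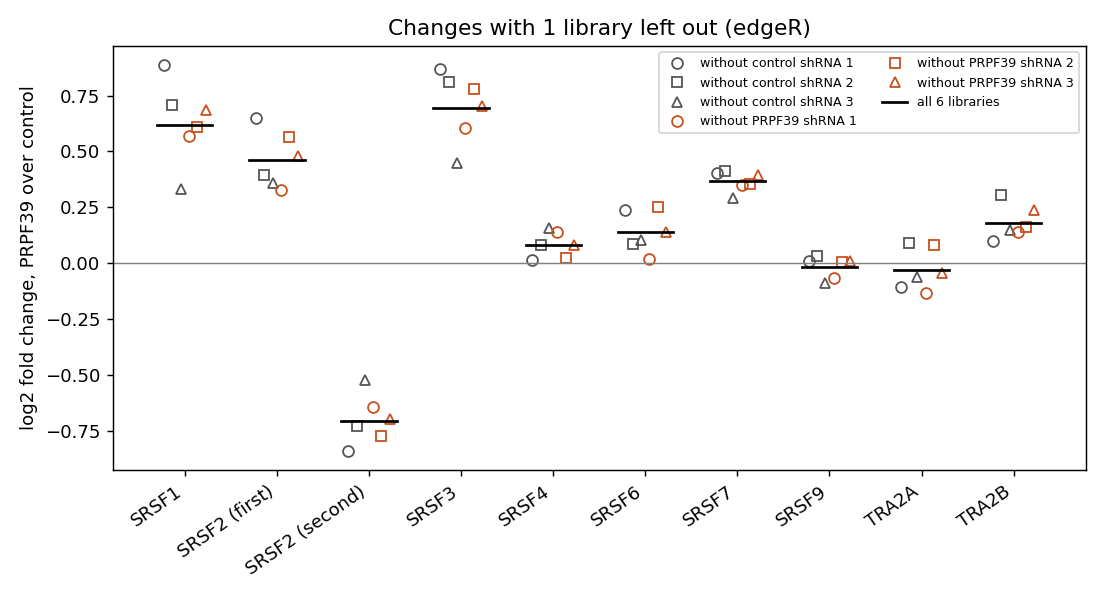
Log2 fold change of each transcript, PRPF39 shRNA over control shRNA, from edgeR with 1 library left out (symbols: the library removed) and with all 6 libraries (black bars). Removing control replicate 3 brought SRSF1 from 0.62 to 0.33 and SRSF3 from 0.69 to 0.45, and removing control replicate 1 gave the highest SRSF1 value, 0.89.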

How the data were processed

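Per the file headers, each library has a table of transcripts with length, effective length, TPM and read number. The read numbers the authors deposited are estimated counts, which are not scaled for depth or length, and TPM values that use each library's own effective lengths. Per the submitters' processing notes the build was hg38 and the tools included Salmon 0.11.1 and, in no stated order, STAR 2.7.9a, cutadapt 2.1 and DESeq2 1.32.0. Options and annotation release are not given in the sources used here.

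Members were matched by ID. Estimated counts were rounded and tested over the whole table with edgeR 4.0.16 (R 4.3.3; filterByExpr with its minimum count of 10, TMM, quasi-likelihood, no covariate), with Benjamini-Hochberg adjustment over all transcripts tested. The SE was taken from the log2 fold change over the root of its F. CPM uses TMM factors. Alternatives were other normalizations and filters, DESeq2 1.42.0, limma 3.58.1 (voom, and log2(TPM + 0.1)), effective-length offsets, a replicate block and leaving out libraries. Only the edgeR fit, with its low-count filter and with the 5 CPM filter, was tested on simulated data. The other alternatives and the permutation tests were not. Libraries differed pairwise by a chi-square per degree of freedom of at least 29.2, so none was counted as a duplicate.

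All 10 members are named. Members, lists and tests were chosen with earlier results of these data known. Other SR-related genes, their kinases and importer, planned as a list, were not analysed, since no table used here pairs their transcript IDs with symbols.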

Additional observations from a re-analysis of the deposited data

How the results depend on the processing

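The 10 alternatives that kept all libraries and the 12 that left 1 out were set against the wider edgeR test, in which 0 members were called higher and 0 lower. The counts differed from 0 with a mean of at least 5 CPM (1 higher, 1 lower), with DESeq2 (2 and 1) and with the replicate block at 5 CPM (3 and 1, beside 7.74% higher and 8.99% lower of all transcripts). Those 3 were the first SRSF2 transcript, SRSF3 and SRSF7. Leaving out each library at 5 CPM gave 0 to 4 higher and 0 to 1 lower, with the 4 and 1 reached without control replicate 1, the fit that also called the largest share of all transcripts among these 6 (10.2% higher and 11.0% lower, against 1.95% and 2.41% without PRPF39 shRNA replicate 3), and leaving out each library in the wider test gave 0 and 0. Same-numbered libraries were not treated as paired, since their deviations from the group means correlated at 0.07, 0.02 and 0.01 over all 97571 transcripts tested. Most of those are less abundant than the members, and the correlation was not computed at 5 CPM. In the wider test the block gave a smaller SE for every member but TRA2A. That of the first SRSF2 transcript was 0.095 with the block and 0.178 without, and that of TRA2A 0.184 and 0.152 (edgeR). With the replicate block in the wider test 0 members were called in either direction, and 0 of all transcripts, with 5 members at an unadjusted p under 0.05, beside 14.6% of all (edgeR). At 5 CPM the block also had 5 members at that level, beside 36.4% of all transcripts of that abundance (edgeR). The SRSF2 share differed by -16.0 points under that block as well (exact permutation p = 0.25, the smallest possible), and by -20.9 to -11.7 with a library left out. The TRA2 ratio differed by -0.303 to -0.0851 with a library left out. Of the members, SRSF9 changed sign with upper-quartile normalization (0.026) and with log2(TPM + 0.1) (0.013), and ran from -0.088 to 0.034 without 1 library. TRA2A changed sign with upper-quartile normalization (0.017), ran from -0.131 to 0.093 without 1 library, and from -0.163 to 0.041 at 5 CPM. SRSF4 ran from -0.042 to 0.13 (-0.0017 without control replicate 2 and -0.023 without PRPF39 shRNA replicate 2) and SRSF6 from -0.018 to 0.205 without 1 library at 5 CPM. SRSF1, both SRSF2 transcripts, SRSF3, SRSF7 and TRA2B kept their sign in all 22. SRSF9's share of the summed level differed by -2.72 points in CPM, against -4.25 in TPM. The cause of these differences was not tested.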
